A study of Homo sapiens with 6 samples.

Results

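Desmosome genes encode the parts of the cell junction that ties the keratin filaments of neighboring epithelial cells to each other. The 10 genes described here were DSG1, DSG2, DSG3, DSC2, DSC3, DSP, JUP, PKP1, PKP2 and PKP3, and every microarray probe whose gene name in the deposited scanner files was one of these symbols was taken, without regard to its values. This gave 13 probes among the 50599 probes outside the controls, which carry 36337 gene names. The samples were 3 established lines of oral squamous cell carcinoma (OSCC), Ca9-22, HSC-3 and KON, each transfected with a control siRNA (siCtrl) or with an siRNA targeting DLEU1 (siDLEU1; siDLEU1-2 in the study's account of the arrays), a long noncoding RNA. RNA was taken after 72 h, and each of the 6 samples was hybridized to 1 one-color Agilent array. There was thus 1 array per line and siRNA, a change within 1 line had no error of its own, and the 3 lines served as the replicates (n = 3). A single siRNA was used, so loss of DLEU1 and any other effect of this siRNA cannot be told apart. No animal, transgene or patient sample was involved, and the study names the same transfection reagent for all its OSCC cells.

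In a desmosome, the desmogleins (DSG) and desmocollins (DSC) are cadherins that cross the membrane and bind each other between neighboring cells. Plakoglobin (JUP) and the plakophilins (PKP) are armadillo proteins that sit under the membrane on the cadherin tails, and desmoplakin (DSP) links them to keratin filaments. DSG2, DSC2 and PKP2 are widespread and are the isoforms of simple epithelium. DSG3, DSC3 and PKP1 are typical of stratified epithelium such as that of the mouth and skin, and DSG1 of its upper layers.

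The antisense strand of siDLEU1-2 is shown because every comparison of the siRNAs rests on it, with its seed (bases 2 to 8, the part that pairs first with a target) in capitals.

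siDLEU1-2 antisense strand, RNA, 5′ to 3′: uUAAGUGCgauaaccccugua

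The complement of this seed, GCACTTA, was in 0 of the 13 desmosome gene probes, against 57 of the 19956 probes kept for testing. Probes are only 60 bases of a transcript, so the rest of each transcript was not searched. DLEU1 itself was well above background on all 6 arrays, with processed signals (background-subtracted brightness as the scanner software gives it) of 571 and 30.7 (HSC-3), 1145 and 87.8 (KON), and 741 and 66.0 (Ca9-22) for siCtrl and siDLEU1. Its log2 change was −4.10, −3.63 and −3.44 in the 3 lines, so the target was lower in each line after siDLEU1.

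Of the 13 desmosome gene probes, 11 probes of 9 genes were kept for testing, that is, in every line at least 1 of the 2 arrays saw them well above background. Transcripts of the stratified set, DSG3, DSC3 and PKP1, fell after DLEU1 knockdown and PKP2 rose, whereas DSG2, DSC2, JUP, PKP3 and DSP did not pass the test. Limma with Benjamini-Hochberg adjustment over all 19956 kept probes called 4 of the 11 desmosome probes lower (3 genes) and 1 higher at an adjusted p below 0.05, against 4.52% of all kept probes called lower and 3.98% called higher. Of the 11 probes, 3, those of DSG3 and PKP1, were more than 2-fold lower in all 3 lines and 0 were more than 2-fold higher, against 2.08% of kept probes in each direction. The median log2 change over the 11 probes was −0.58, against 0.01 over all kept probes. Of the 11 probes, 9 had changes of the same sign in all 3 lines, 7 negative and 2 positive, against 26.7% and 26.9% of all kept probes. Without HSC-3 or without KON limma called 0 of the 11 probes at the same threshold, and without Ca9-22 it called DSG3 alone. Leaving out 1 line at a time, the mean log2 change ran from −2.40 to −1.83 for DSG3, from −1.23 to −1.07 for DSC3 probe 1, from −1.56 to −1.37 for PKP1 probe 1 and from 1.15 to 1.36 for PKP2. The count was also 0 with no filter on dim probes, with no cell line block and in the methods' t-test after adjustment. With normexp background correction the probe of DSG3 alone was over 2-fold in all lines, and without KON 5 probes were. With 2 lines only, limma called few or no probes of the whole array either, 0 without HSC-3, 0 without KON, and 127 higher and 117 lower without Ca9-22.

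**Figure D1:**
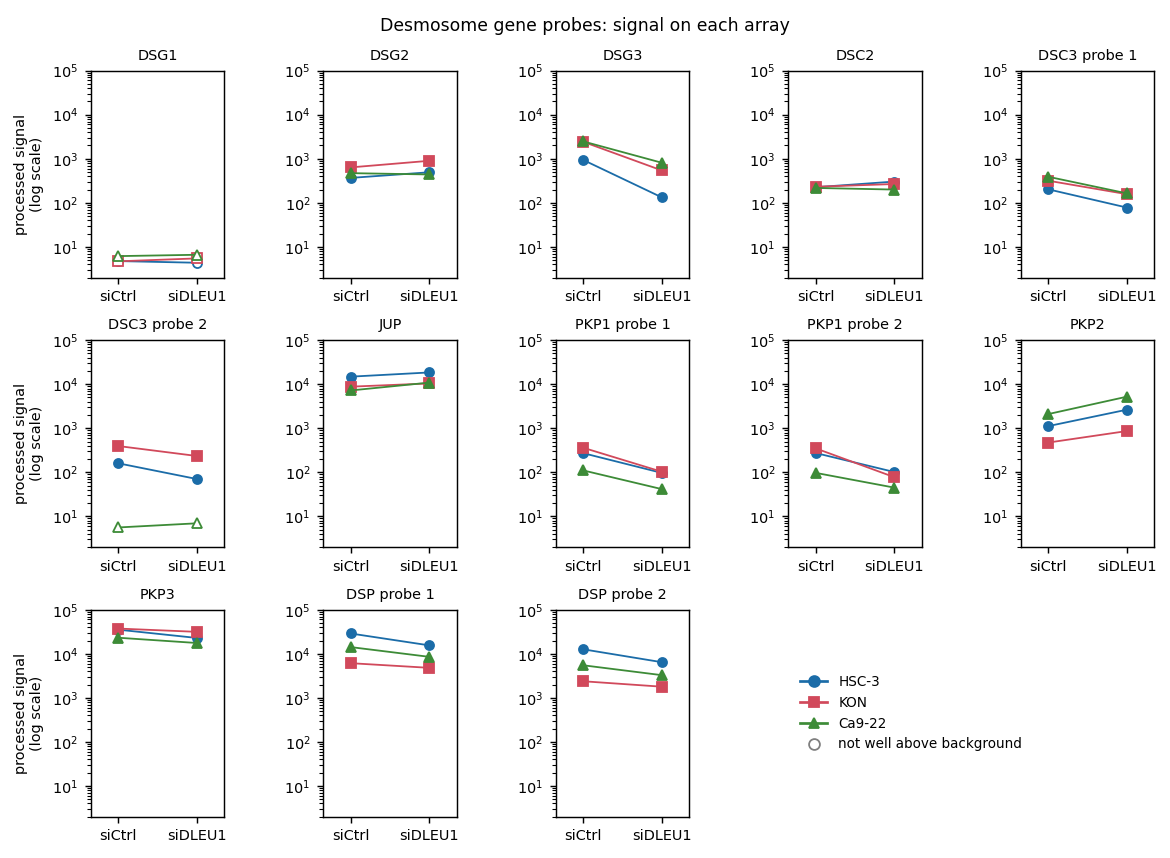
Processed signal (log scale) of each of the 13 desmosome gene probes on the 6 arrays, with siCtrl on the left and siDLEU1 on the right of each panel and 1 line per cell line; open symbols are not well above background. DSG3 and PKP1 slope down and PKP2 slopes up in all 3 lines, and DSG1 lies between 4.37 and 6.63 on every array.

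DSG3, the main desmoglein of the lower layers of stratified squamous epithelium, had processed signals of 941 and 133 (HSC-3), 2430 and 543 (KON), and 2478 and 812 (Ca9-22) for siCtrl and siDLEU1. Every siDLEU1 array lay below every siCtrl array, but the share of all kept probes with such a gap was not counted. DSG3 was 6.53-fold lower in HSC-3, 4.26-fold lower in KON and 2.95-fold lower in Ca9-22. Its mean log2 change of −2.12 ± 0.57 (SD, n = 3; 95% confidence interval (CI) −2.78 to −1.46; limma adjusted p = 0.0266) was the largest fall among the kept desmosome probes. The probe lies at chr18:29058356-29058415 in hg19, the build of the scanner files.

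DSC3, the desmocollin that accompanies DSG3 in stratified epithelium, had 2 probes. Probe 1, at chr18:28576935-28576994, gave 203 and 78.1 (HSC-3), 318 and 157 (KON), and 391 and 164 (Ca9-22) for siCtrl and siDLEU1. Each siDLEU1 value was below the lowest siCtrl value, and here too the share of all kept probes like this was not counted. Its log2 changes were −1.26, −0.94 and −1.20, a mean of −1.14 ± 0.17 (SD, n = 3; 95% CI −1.52 to −0.75; limma adjusted p = 0.0292). KON fell short of 2-fold (1.92-fold lower), so DSC3 was not among the probes over 2-fold in all 3 lines, but with arrays centered on their median it was, at −1.06 in KON.

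Probe 2 of DSC3, at chr18:28571035-28571094, lies nearer the 3′ end, at transcript position 5935 against 2410 for probe 1. It gave 161 and 70.7 in HSC-3 and 396 and 235 in KON, with log2 changes of −1.07 and −0.68 in these lines. In Ca9-22 it was not well above background on either array, with 5.62 and 6.98, so it was not tested. The order of the lines therefore differed between the probes. Probe 1 was brightest in Ca9-22, whereas probe 2 was at least 5.26-fold higher in HSC-3 and at least 12.6-fold higher in KON than in Ca9-22, taking the lowest signal well above background on each Ca9-22 array as the bound. Both probes carry RefSeq transcript names of DSC3, and which transcripts each line makes was not measured.

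DSG2 and DSC2, the desmosomal cadherins that simple epithelia also use, did not pass the test. DSG2 gave 368 and 494 (HSC-3), 637 and 899 (KON), and 472 and 440 (Ca9-22), and its siCtrl and siDLEU1 values overlapped. Its log2 changes were 0.54, 0.57 and −0.05, with a mean of 0.35 ± 0.35 (SD, n = 3; 95% CI −0.13 to 0.84; limma adjusted p = 0.281). DSC2 gave 226 and 304 (HSC-3), 231 and 267 (KON), and 218 and 200 (Ca9-22). Its mean log2 change was 0.25 ± 0.31 (SD, n = 3; 95% CI −0.21 to 0.71; limma adjusted p = 0.400). These intervals left room for a rise of up to 0.84 and 0.71 on the log2 scale, so the data did not show that DSG2 and DSC2 stayed level. DSG1, the desmoglein of the upper layers, never rose well above background, with 6 signals of 4.37 to 6.63.

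The desmogleins and desmocollins lie next to each other on chromosome 18. By the probe positions in hg19 the order of those described here is DSC3, DSC2, DSG1, DSG3 and DSG2. The 2 cadherins that fell, DSC3 and DSG3, were thus not neighbors. Of the genes described here, DSC2, which did not pass the test, and DSG1, not well above background, lay between them.

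The 250 bases before the transcription start are shown for the genes that fell, since these transcripts moved together, and for DSG1, which shares a stretch with DSG3. Sequences are from RefSeq, build GRCh38.p14, whose coordinates differ from those of the probes. They were found for 8 of the 10 genes. Each reads 5′ to 3′ toward the start, and capitals mark the 20 bases that DSG1 and DSG3 have in common.
DSG3, chr18:31447491-31447740, plus strand: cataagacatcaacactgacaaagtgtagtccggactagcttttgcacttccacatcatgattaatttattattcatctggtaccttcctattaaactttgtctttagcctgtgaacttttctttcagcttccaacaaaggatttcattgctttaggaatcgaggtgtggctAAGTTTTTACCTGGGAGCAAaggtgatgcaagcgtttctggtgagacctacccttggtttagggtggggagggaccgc
DSG1, chr18:31317910-31318159, plus strand: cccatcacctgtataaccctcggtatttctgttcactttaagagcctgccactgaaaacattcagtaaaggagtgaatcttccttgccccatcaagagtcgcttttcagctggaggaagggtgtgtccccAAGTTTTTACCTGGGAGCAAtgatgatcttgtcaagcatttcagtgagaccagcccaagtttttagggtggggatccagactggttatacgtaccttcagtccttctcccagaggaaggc
DSC3, chr18:31042743-31042992, minus strand: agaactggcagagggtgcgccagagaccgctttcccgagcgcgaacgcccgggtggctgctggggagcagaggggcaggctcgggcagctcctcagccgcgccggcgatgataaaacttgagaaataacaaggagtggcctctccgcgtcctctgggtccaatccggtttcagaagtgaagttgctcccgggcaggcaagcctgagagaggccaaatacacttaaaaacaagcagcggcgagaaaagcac
PKP1, chr1:201283256-201283505, plus strand: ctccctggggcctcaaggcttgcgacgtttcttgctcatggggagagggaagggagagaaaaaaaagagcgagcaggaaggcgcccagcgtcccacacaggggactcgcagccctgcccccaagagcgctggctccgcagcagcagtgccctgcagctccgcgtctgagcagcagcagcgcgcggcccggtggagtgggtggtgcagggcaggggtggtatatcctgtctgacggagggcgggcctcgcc

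The shared stretch ran from base 120 to base 101 before the start of DSG1 and from base 78 to base 59 before the start of DSG3. It was the longest run the 2 windows had in common, and on both strands it was in 0 other windows of the desmosome genes and in 2 of all 35116 windows of the same length, those of DSG1 and DSG3. The E-box CACCTG, a motif that SNAI and ZEB proteins bind, searched on both strands, was in none of the windows of DSG3, DSC3 and PKP1. It was in 5 of the 10 windows of the desmosome genes, those of DSG1, DSG2 and DSP and 1 of 2 each for DSC2 and JUP, against 17.5% of all windows. The AP-1 motif TGANTCA and the grainyhead motif AACNGGTT were in 0 of the 10 windows, against 6.57% and 1.49% of all windows. These are letter matches in short windows and say nothing of whether a protein is bound.

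PKP1, the plakophilin of stratified epithelium, fell in all 3 lines. Its probe 1, at chr1:201297916-201297975, gave 273 and 97.2 (HSC-3), 362 and 103 (KON), and 111 and 41.6 (Ca9-22) for siCtrl and siDLEU1. Within each line siDLEU1 was the lower array. On the array-centered log2 scale the groups overlapped for both probes, since siDLEU1 in HSC-3 (−1.04 for probe 1, −0.98 for probe 2) lay above siCtrl in Ca9-22 (−1.18 and −1.37). The log2 changes were −1.37, −1.74 and −1.36, and the mean was −1.49 ± 0.22 (SD, n = 3; 95% CI −1.89 to −1.09; limma adjusted p = 0.0247). Probe 2 gave the same mean, −1.49 ± 0.54 (SD, n = 3; limma adjusted p = 0.0380), but it shares 49 of its 60 bases with probe 1, so the pair is close to 1 measurement. With another background correction (normexp) PKP1 kept its call while its mean log2 change shrank to −0.91 for probe 1 and −0.95 for probe 2.

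PKP2, the plakophilin of simple epithelium and also of heart muscle, was the only kept desmosome gene that limma called higher. Its probe, at chr12:32943741-32943800, gave 1119 and 2643 (HSC-3), 474 and 866 (KON), and 2100 and 5217 (Ca9-22). Within each line siDLEU1 was the higher array, but the 2 groups overlapped, with KON lowest under both siRNAs. PKP2 was 1.92-fold higher in KON, 2.56-fold in HSC-3 and 2.57-fold in Ca9-22. It had a mean log2 change of 1.22 ± 0.24 (SD, n = 3; 95% CI 0.80 to 1.64; limma adjusted p = 0.0298).

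PKP3, a plakophilin found in most layers of stratified epithelium, gave 35270 and 22840 (HSC-3), 37340 and 31440 (KON), and 23130 and 17550 (Ca9-22). It was lower in each line after siDLEU1, yet its mean log2 change of −0.34 ± 0.17 (SD, n = 3; 95% CI −0.72 to 0.04; limma adjusted p = 0.201) did not pass the test. JUP, which also serves adherens junctions, gave 14850 and 18510 (HSC-3), 8799 and 10430 (KON), and 7221 and 10890 (Ca9-22). The siCtrl and siDLEU1 values of both genes overlapped. JUP was higher in each line, with a mean log2 change of 0.47 ± 0.17 (SD, n = 3; 95% CI 0.09 to 0.84), but missed the threshold after adjustment (limma adjusted p = 0.117).

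DSP, the link to keratin, was lower in each line without passing the test. Its brighter probe, at chr6:7586582-7586641, gave 28860 and 15500 (HSC-3), 6114 and 4794 (KON), and 14180 and 8512 (Ca9-22). The siCtrl and siDLEU1 values overlapped. The mean log2 change was −0.58 ± 0.27 (SD, n = 3; 95% CI −1.01 to −0.15; limma adjusted p = 0.0988) for this probe and −0.63 ± 0.26 (SD, n = 3; limma adjusted p = 0.0844) for the second, at chr6:7586052-7586111. The 2 probes do not overlap, and in both KON moved least (−0.28 and −0.34).

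**Figure D2:**
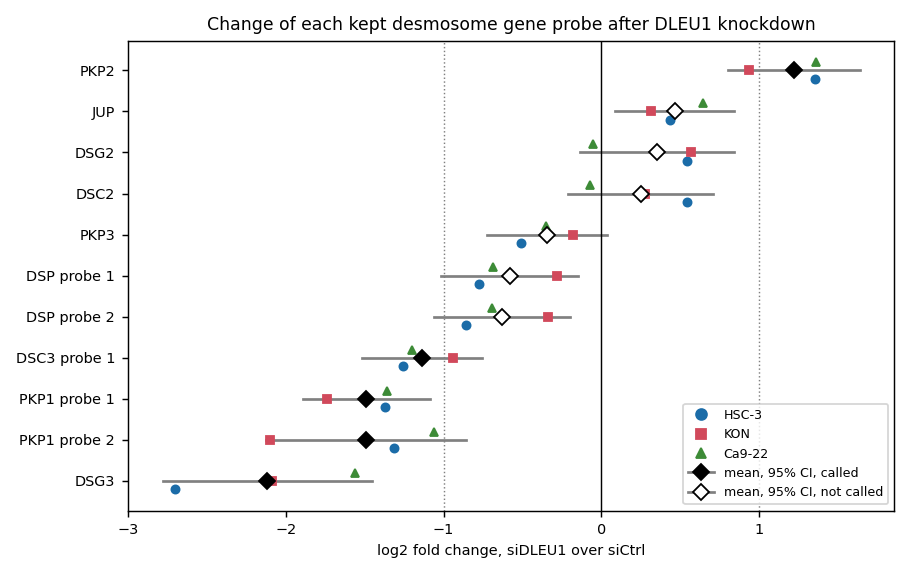
Log2 fold change (siDLEU1 over siCtrl) of the 11 kept desmosome gene probes, with colored symbols for the 3 lines, diamonds for the mean and gray bars for the limma 95% CI; filled diamonds passed an adjusted p of 0.05 and dotted lines mark 2-fold. DSG3, both PKP1 probes and DSC3 probe 1 lie to the left of 0 and PKP2 to the right, and the other bars belong to means between −0.63 and 0.47.

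The lines differed in desmosome transcripts. In the same limma fit, with the siRNA as a term and thus 2 arrays per line, 9 of the 11 probes differed between at least 1 pair of lines, and the 2 that did not were DSG2 and DSC2. The share of all kept probes called in at least 1 pair was not counted. It cannot be below 36.6%, the largest share of a single pair. Limma called 5 of the 11 probes between KON and HSC-3, against 36.2% of all kept probes, 9 between Ca9-22 and HSC-3, against 36.6%, and 6 between Ca9-22 and KON, against 33.2%. Differences between lines were thus common on the whole array. With 1 culture per line and siRNA, the spread behind these tests includes how the siRNA changed each line.

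DSP differed in all 3 pairs: HSC-3 was 4.69-fold above KON and 2.28-fold above Ca9-22, and Ca9-22 was 2.06-fold above KON (limma adjusted p = 0.00669, 0.0156 and 0.0223, probe 1). Probe 2 gave the same order. PKP2 ran in another order, with Ca9-22 5.23-fold above KON and 1.63-fold above HSC-3, and HSC-3 3.22-fold above KON (limma adjusted p = 0.00669, 0.0488 and 0.00820). KON was thus lowest in both DSP and PKP2.

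JUP was highest in HSC-3, 2.08-fold above KON and 2.21-fold above Ca9-22 (limma adjusted p = 0.0159 and 0.0129), while the difference between Ca9-22 and KON was not called (log2 difference −0.09, 95% CI −0.56 to 0.37). DSG3 was lowest in HSC-3, with KON 2.71-fold and Ca9-22 3.38-fold higher (limma adjusted p = 0.0266 and 0.0169), and Ca9-22 against KON was not called (log2 difference 0.32, 95% CI −0.49 to 1.13). For DSC3 probe 1 the call was limited to Ca9-22 over HSC-3 (1.70-fold, limma adjusted p = 0.0321), and neither of them was called different from KON.

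PKP1 and PKP3 were lowest in Ca9-22. PKP1 was 2.84-fold lower there than in HSC-3 and 2.81-fold lower than in KON (probe 1, limma adjusted p = 0.00888 and 0.0103). PKP3 was 1.67-fold and 1.68-fold lower there (limma adjusted p = 0.0346 and 0.0353). HSC-3 and KON were not called different in either gene, with log2 differences of −0.02 (95% CI −0.51 to 0.48) for PKP1 and 0.01 (95% CI −0.46 to 0.47) for PKP3. In Ca9-22, then, PKP2 was at its highest and PKP1 and PKP3 at their lowest of the 3 lines. Without 1 of the HSC-3 arrays the count of probes that differed between lines dropped to 5 (without siCtrl) or 4 (without siDLEU1), and without the siCtrl array of Ca9-22 to 5.

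**Figure D3:**
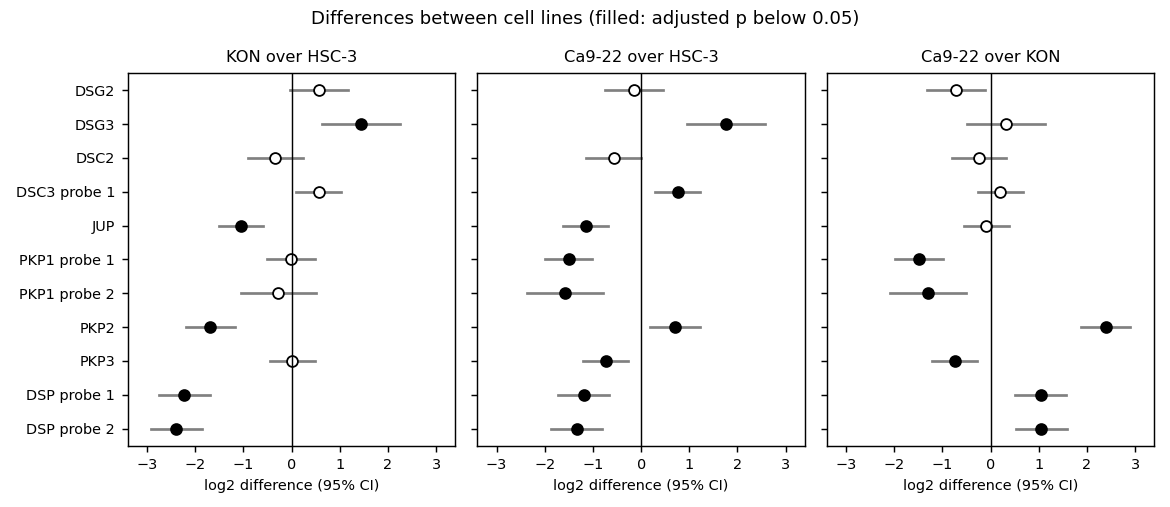
Log2 difference between cell lines for each kept desmosome gene probe, from the limma fit with the siRNA as a term; points are estimates, bars 95% CI, and filled points have an adjusted p below 0.05. DSP and PKP2 are lowest in KON, PKP1 and PKP3 are lowest in Ca9-22, and DSG2 and DSC2 have open points in all 3 panels.

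Genes that work beside the desmosome were read from lists set by function. The counts of each list stand against 3.98% of all kept probes called higher and 4.52% called lower. Of the other desmosome and envelope partners, 8 probes of 5 genes were kept, 1 was called higher and 0 lower, and the median log2 change was −0.01. The called gene was PPL (periplakin, which ties keratin to the desmosome and the cornified envelope), with signals of 1169 and 2103 (HSC-3), 1190 and 2998 (KON), and 1181 and 3014 (Ca9-22) and a mean log2 change of 1.26 ± 0.25 (SD, n = 3; limma adjusted p = 0.0295). The desmosomal cadherins DSC1 and DSG4 and corneodesmosin (CDSN) stayed below the well-above-background mark on every array.

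Of the adherens junction genes, the neighboring type of cell junction, 15 probes were kept, 2 were called higher and 0 lower, and the median was 0.21. They were CDH1 (E-cadherin), with a mean log2 change of 2.92 ± 0.21 (SD, n = 3; limma adjusted p = 0.0227), and 1 of 2 probes of PVRL2 (nectin-2), with 1.15 ± 0.30 (SD, n = 3; limma adjusted p = 0.0334). Of the hemidesmosome genes, which anchor keratin to the basement membrane, 10 probes were kept and 1 was called lower, ITGB4 (integrin beta-4) at −2.73 ± 0.57 (SD, n = 3; limma adjusted p = 0.0247), 0 were called higher, and the median was −0.65.

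Keratins are what the desmosome holds. Of 18 kept keratin probes 4 were called higher and 1 lower, with a median of 0.15. The simple epithelial keratins KRT8, KRT18 and KRT7 rose, with mean log2 changes of 2.47 ± 1.12 for KRT8, 1.83 ± 0.40 and 1.40 ± 0.19 for the 2 probes of KRT18 and 1.12 ± 0.18 for KRT7 (SD, n = 3; limma adjusted p = 0.0452, 0.0247, 0.0247 and 0.0298). KRT19, also a keratin of simple epithelium, did not pass the test (0.87 ± 1.11, SD, n = 3; limma adjusted p = 0.268). Of the 3 probes of KRT8 only 1 was called. A second also rose in every line, with a mean log2 change of 2.86 ± 1.79 (SD, n = 3, limma adjusted p = 0.0734). It was not well above background on 1 of the KON arrays. The remaining probe had a mean log2 change of 0.10. KRT6A, a keratin of stratified epithelium under stress, fell by 1.33 ± 0.13 on the log2 scale (SD, n = 3; limma adjusted p = 0.0247). No other kept probe of a stratified keratin was called, and these did not move together. Mean log2 changes were positive for KRT16 (0.17) and KRT17 (0.14) and negative for KRT5 (−1.14), among others. KRT14 had −1.72, −1.57 and 0.01 by probe.

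Of the transcription factors linked to desmosomal genes, 13 probes were kept, 2 were called higher and 1 lower, and the median was 0.25. TP63, the master factor of stratified epithelium, fell, with signals of 370 and 65.8 (HSC-3), 231 and 43.3 (KON), and 191 and 28.8 (Ca9-22) and a mean log2 change of −2.46 ± 0.18 (SD, n = 3; limma adjusted p = 0.0227). OVOL1, a repressor active in epithelial differentiation, rose by 1.69 ± 0.50 on the log2 scale and SNAI1, a repressor of E-cadherin, by 1.58 ± 0.68 (SD, n = 3; limma adjusted p = 0.0305 and 0.0459). TP63 was not well above background on 1 of the 2 Ca9-22 arrays (siDLEU1, 28.8), nor SNAI1 on 1 of the 2 HSC-3 arrays (siCtrl, 16.1, against 63.5 in siDLEU1), so the sizes of these changes include 1 dim value each. The part of these factors in the changes of the desmosome genes was not tested. Of the proteases that cut desmosomal cadherins and their inhibitors, 9 probes were kept, 2 were called higher and 0 lower, and the median was 0.54. They were CTSL2 (cathepsin V) at 1.36 ± 0.59 and ADAM17, a sheddase of DSG2, at 0.83 ± 0.19 (SD, n = 3; limma adjusted p = 0.0493 and 0.0453).

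**Figure D4:**
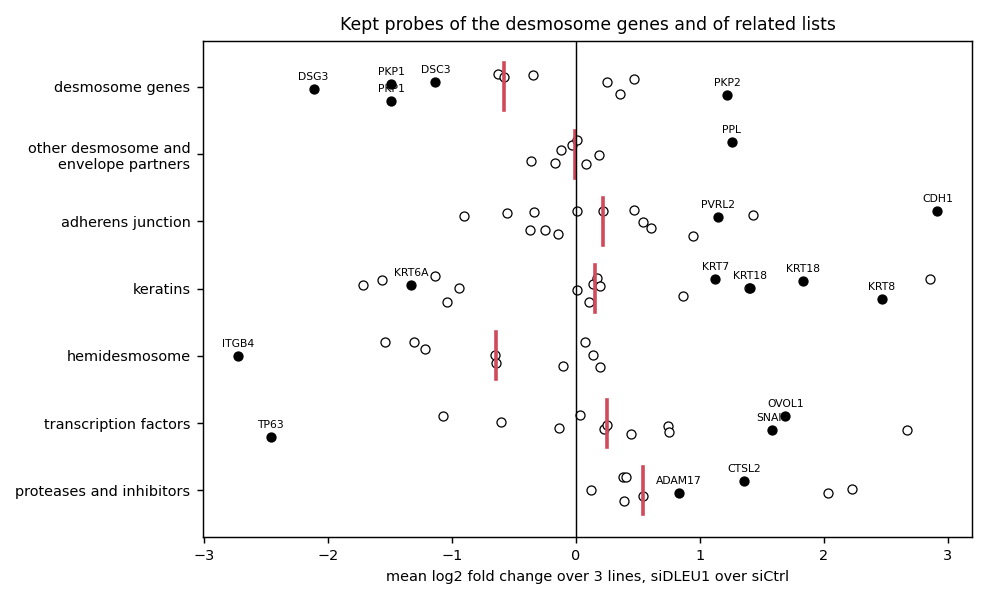
Mean log2 fold change over the 3 lines (siDLEU1 over siCtrl) of each kept probe of the desmosome genes and of 6 related lists; filled points have a limma adjusted p below 0.05 and carry the gene name, and red bars are the list medians. The desmosome and hemidesmosome lists have medians of −0.58 and −0.65 and the protease list 0.54.

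The genes most like the 2 members with changes over 2-fold in all lines were sought among 15410 probes with a gene name all of them well above background on each of the 6 arrays. For DSG3 these were KLHL8, CCDC88A and MTR, with Pearson r over the 6 arrays of 0.994, 0.994 and 0.991. For PKP1 (probe 1) they were HMGB3, CDC37L1 and MRPS16, with r of 0.993, 0.992 and 0.991. A high r does not mean a change of the same size: the log2 changes ran from −0.76 to −0.55 for HMGB3, from −1.67 to −1.38 for CDC37L1 and from −0.35 to −0.18 for MRPS16, and from −1.74 to −1.36 for PKP1 itself. The 6 arrays come from 3 lines that share a treatment. Of the 15410 probes, 66 had r above 0.95 with DSG3 and 104 with PKP1.

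The epithelial label of the lines was checked against marker genes. A list of epithelial markers held KRT5, KRT6A, KRT14, KRT17 and TP63, with CDH1 and EPCAM, which are not particular to squamous epithelium. Of its 9 probes, 7 were well above background on each of the 6 arrays. The summed signal of the list was 36320 to 187900 in siCtrl and 52500 to 92860 in siDLEU1. This sum pools genes that moved apart. Mean log2 changes were 2.92 for CDH1, 1.09 for EPCAM and 0.14 for KRT17. They were −1.14 for KRT5, −1.33 for KRT6A and −2.46 for TP63, and −1.72, −1.57 and 0.01 for the probes of KRT14. Of 6 probes for the simple epithelial markers KRT8, KRT18 and KRT19, 5 were well above background on each array, and the list summed to 59270 to 243400 in siCtrl and 130200 to 397100 in siDLEU1. Of 8 fibroblast marker probes 5 were well above background on none, COL1A2, COL3A1, LUM and PDGFRB among them, and the list summed to 292 to 3824 in siCtrl and 520 to 4585 in siDLEU1. COL1A1, a fibroblast collagen gene of that list, was well above background throughout and was called higher, with a mean log2 change of 1.45 ± 0.57 (SD, n = 3; limma adjusted p = 0.0423). The leukocyte list summed to 92.3 to 10510 in siCtrl and 126 to 13010 in siDLEU1. Most of the fibroblast and leukocyte sums came from VIM (3657 and 3993) and CD14 (10440 and 12940) in HSC-3. Of the 3 lines, HSC-3 had the lowest DSG3 but the highest DSP and JUP. Endothelial and melanocyte lists summed to at most 206 and 416 in siCtrl and 433 and 759 in siDLEU1. The part of these markers in the desmosome gene values was not tested. In bulk RNA, fewer cells that express a gene and less RNA of it per cell cannot be told apart.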

How the data were processed

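Total RNA (100 ng per sample) was labeled with Cy3 and hybridized to Agilent one-color arrays. The authors extracted the spots with Agilent Feature Extraction (version 10.7 per the labels), and the deposited scanner files give each spot's intensity as a background-subtracted processed signal, with probe positions in hg19. A deposited series table holds the same processed signals and served as an alternative. All arrays lay on 1 slide with 1 scan time.

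Control spots and outlier spots were left out, and 0 spots were saturated. From 43.0% to 45.7% of probes per array were well above background, and the number of arrays limits the precision. The log2 of the deposited processed signal minus each array's 75th percentile was analyzed, so a level is relative to its array. A probe was kept if, in every line, 1 or both arrays had it well above background (19956). Limma 3.58.1 in R 4.3.3 fitted line and siRNA together, with Benjamini-Hochberg adjustment over kept probes. The cell line pairs the samples, and the correlation of the paired arrays' deviations was 0.81 to 0.83. Nothing says that cultures were independent beyond the 3 lines, so p-values measure the spread between these samples.

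Each probe is reported on its own. Named genes were every probe of the 10 genes, DLEU1, up to 4 called genes per list with the largest mean change, and the 3 most similar genes for members over 2-fold in all lines. KRT5, KRT14, KRT16, KRT17, KRT19, DSC1, DSG4, CDSN and the cell type markers are named outside this rule, after their values were seen. All 13 probe accessions matched RefSeq under the same symbol. The genes and lists were chosen with earlier results of these data known. Figures were drawn with matplotlib. Alternatives covered centering, normalization, background correction, filters, probe averaging, left-out lines or arrays, the block and the test.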

Additional observations from a re-analysis of the deposited data

Results flagged for a closer look

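DSG2 and DSC2 did not pass the test over the 3 lines, and the sign of their log2 change was not the same in all lines. DSG2 had a log2 change of -0.0498 in Ca9-22 against 0.54 in HSC-3 and 0.57 in KON, and DSC2 had -0.0727 in Ca9-22 against 0.55 and 0.28. The Ca9-22 values are close to 0. With 1 array per line and siRNA the difference between lines was not tested.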

How the results depend on the processing

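The calls for DSG3, DSC3 probe 1, both PKP1 probes and PKP2 (5 probes) were kept under median centering, the percentile of detected probes, quantile normalization, normexp, the series table, a filter on all 6 arrays and a floor for dim values, and no mean change of a kept desmosome probe reversed under any alternative. With the probes of a gene averaged, the 4 genes were called. Limma called 0 of the desmosome probes with no filter, where it also called 0 of all 50544 probes (8 desmosome probes had an unadjusted p below 0.05, against 6816 of all), and 0 with no cell line block (4 unadjusted, against 1357 of all 19956). The methods' t-test called 0 after adjustment (1 unadjusted, against 1373 of all). Leaving out 1 line gave 0 to 1 calls. The count over 2-fold in all lines was 3, and 1 with normexp, 0 at a 3-fold threshold, and 3 to 5 without 1 line. The count of probes that differed between lines was 9, and 4 to 8 without 1 array. Adjusted p under the alternatives ran from 0.0120 to 0.748 for DSG3 and from 0.0180 to 1 for PKP2, and for DSP probe 2, not called, its lowest was 0.0501. The slide was not tried as a block because there was 1 slide. The cause of these shifts was not tested. Dim signal limits DSG1 and, in Ca9-22, DSC3 probe 2.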
